A study of Mus musculus with 5 samples.

Results

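Described here are 35 genes of the lysosome, chosen by name: 8 cysteine cathepsins, 3 other peptidases, 10 hydrolases of glycans and sulfate esters, 6 lipid hydrolases, activator proteins and cholesterol carriers, 6 membrane proteins, the transcription factor Tfeb and the autophagy receptor Sqstm1. They were read from a table of 21630 genes, each represented by its brightest probe set, and all 35 were on the array. The cells were mouse embryonic fibroblasts from littermate embryos, grown by 3T3 serial passaging and harvested at passage 40. The genotype on the labels was MDR2-/- for 3 arrays (replicates 1, 2 and 3) and MDR2+/+ for 2 arrays (replicates 2 and 3). They are called the arrays labelled knockout and wild type. The labels name no drug or other agent, and the deleted stretch and the number of embryos behind each group were not stated. The labels leave unstated whether replicates were separate cultures or repeat extractions, so every p-value here reflects array-to-array spread that may be technical. The comparison asks which lysosomal transcripts differed between the genotypes, in a study about MDR2 deficiency, oxidative stress and cell transformation.

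Lysosomes are acidic organelles in which proteases, glycosidases, sulfatases and lipases break down material delivered by endocytosis and autophagy. Soluble hydrolases are sorted there through receptors for mannose 6-phosphate or through sortilin, and a proton pump keeps the lumen acidic. Many of the genes are shared targets of TFEB, a factor that binds E-box motifs near their start sites and moves to the nucleus when mTORC1 activity falls. Ageing fibroblast cultures are often stained for the activity of lysosomal β-galactosidase, the product of Glb1.

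The E-box searched for was CACGTG, which reads the same on both strands, and its longer form TCACGTGA, which contains it and is counted within it. RefSeq promoter windows of 300 bases (GRCm38.p6, 250 bases before to 50 after the annotated start) were matched for 32 of the 35 genes. Ctsb, Ctsh and Npc1 had no entry. CACGTG was found in 10 of the 32 genes (31.25%), against 8.093% of 27025 genes with such windows. TCACGTGA was found in 4 of the 32 (12.5%; Ctsa, Ctsd, Gla and Mcoln1), against 1.125% of all. A match is a description of these letters and not a binding site. The stretches below, 100 bases each and written 5′ to 3′ on the strand of the gene, belong to the gene that passed the test, the gene closest to it, the enzyme of the senescence stain and 3 genes with several matches; capitals mark CACGTG.
Ids (chrX:70365036-70365135, minus strand): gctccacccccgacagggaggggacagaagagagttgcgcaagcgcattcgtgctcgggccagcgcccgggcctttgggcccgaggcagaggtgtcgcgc
Ctsa (chr2:164833723-164833822, plus strand): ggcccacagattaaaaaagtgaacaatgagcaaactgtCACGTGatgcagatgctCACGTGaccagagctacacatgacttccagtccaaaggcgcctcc
Gla (chrX:134601147-134601246, minus strand): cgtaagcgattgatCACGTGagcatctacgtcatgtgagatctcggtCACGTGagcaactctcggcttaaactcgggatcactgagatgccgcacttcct
Glb1 (chr9:114400983-114401082, plus strand): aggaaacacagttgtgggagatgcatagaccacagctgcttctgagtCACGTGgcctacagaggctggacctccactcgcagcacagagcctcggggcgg
Lamp1 (chr8:13159099-13159198, plus strand): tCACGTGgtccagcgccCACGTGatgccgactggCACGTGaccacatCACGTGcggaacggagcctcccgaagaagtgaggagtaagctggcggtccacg
Mcoln1 (chr8:3500427-3500526, plus strand): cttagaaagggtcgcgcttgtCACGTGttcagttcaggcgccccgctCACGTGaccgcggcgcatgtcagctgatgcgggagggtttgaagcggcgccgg
Lamp1 held 4 matches, Ctsa, Ctsd, Gla and Mcoln1 held 2 each, and the Ids window held none.

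**Figure D1:**
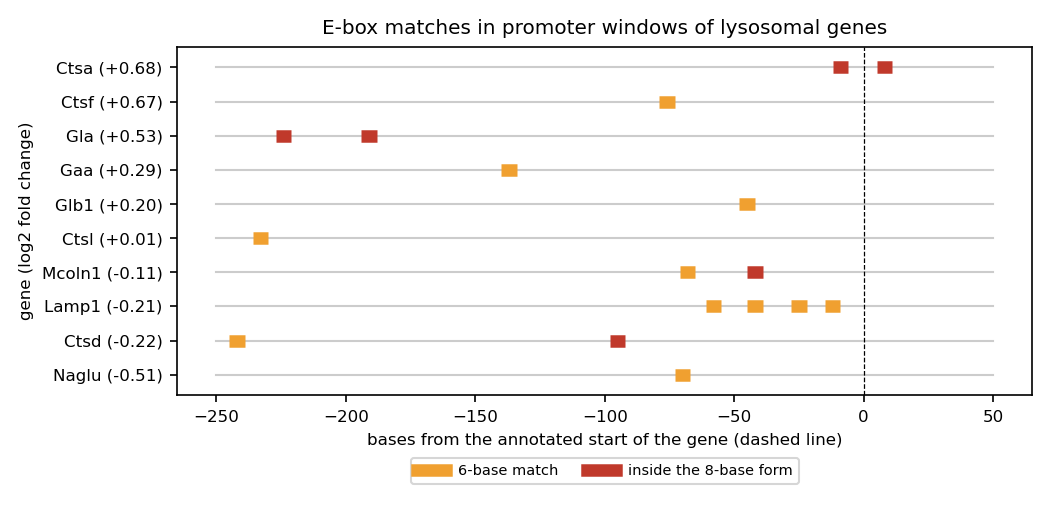
Position of each CACGTG match in the promoter windows of the 10 lysosomal genes that hold one, in bases from the annotated start (dashed line), with the log2 fold change of each gene in brackets. Red marks lie inside TCACGTGA; genes with matches lie on both sides of 0, from 0.68 for Ctsa to -0.51 for Naglu.

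Several properties of the arrays bear on every comparison. Abcb4, the gene that Mdr2 is an older name for, had a log2 signal of 4.63 to 6.0 on the arrays labelled knockout and 3.95 and 4.05 on the wild-type arrays. It was higher by 1.46 ± 0.50 (limma adjusted p = 0.358), so it does not check the labels, and the probes may lie outside the deleted stretch. Abcb4 exceeded the background defined below on knockout replicate 1 only, so its difference has little signal behind it. Xist was higher by 4.41 (adjusted p = 0.025) and Ddx3y and Eif2s3y were lower by 4.40 and 4.99 (adjusted p = 0.027 and 0.030) on the arrays labelled knockout, so genotype label and sex-linked expression cannot be told apart. Of 10 fibroblast markers, 8 exceeded background on all 5 arrays, while Lum did so on none; background here is the 95th percentile of the antigenomic probe sets, whose probes have no match in the mouse genome. All 11 macrophage markers and all 6 osteoclast markers, from cell types rich in cathepsins, were below that percentile on every array. The summed linear signal of the macrophage markers was 107 to 126 on the arrays labelled knockout and 104 to 117 on the others, and that of the osteoclast markers was 101 to 117 and 106 to 114. The 7 epithelial and 6 endothelial markers were below background throughout, with sums of 117 to 148 against 98.5 to 110 and of 49.3 to 50.8 against 47.2 to 49.2, and Cdh1 among the epithelial markers lay higher without overlap by 1.19 (adjusted p = 0.224). The summed fibroblast markers gave 9592 to 11553 on the arrays labelled knockout and 13199 to 14921 on the wild-type arrays, while Thy1 among them lay higher by 4.73 (adjusted p = 0.0523). The part of these shifts in the lysosomal differences was not tested.

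Ids was the lysosomal gene that passed the test, and it rose. Across all genes, 65 of 21630 (0.301%) had a limma adjusted p under 0.05, and of the 35 lysosomal genes 1 was called higher and 0 lower. Ids encodes iduronate 2-sulfatase, which removes sulfate from heparan and dermatan sulfate, and lies on chromosome X (67596244 to 67618259, minus strand, array annotation, NCBIM37). Log2 signal of Ids on the arrays labelled knockout was 7.94 (replicate 1), 7.998 (replicate 2) and 7.84 (replicate 3), while the wild-type arrays read 6.60 (replicate 2) and 6.73 (replicate 3). Every array labelled knockout lay above both wild-type arrays, with a gap many times the spread within either group. Group means of 7.93 ± 0.08 (SD, n = 3) and 6.66 ± 0.09 (SD, n = 2) gave a difference of 1.26 ± 0.07 (SE; 95% interval 1.06 to 1.46), or 2.40-fold (limma adjusted p = 0.0428). In cultures measured in bulk, more expressing cells and more RNA per cell cannot be told apart. The call was lost when any array was left out: the adjusted p was 0.169, 0.0879 and 0.176 without knockout replicate 1, 2 and 3, and 0.0750 and 0.0595 without wild-type replicate 2 and 3. The count over all genes was then 0, 2, 0, 189 and 335 in the same order. Its log2 difference was between 1.20 and 1.34 in all alternatives. Because Ids is X-linked and the groups differ in Xist, the part of sex-linked expression in its difference was not tested. Among the 171 X-linked genes above the 75th percentile of mean level, the median log2 fold change was 0.01. Of these, 27 (15.8%) lay wholly above and 38 (22.2%) wholly below the wild-type arrays. Over all 5408 genes above that percentile, the median was -0.06 and the shares were 17.8% and 30.9%. Shares over many genes cannot decide the sex-linked part in Ids alone.

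**Figure D2:**
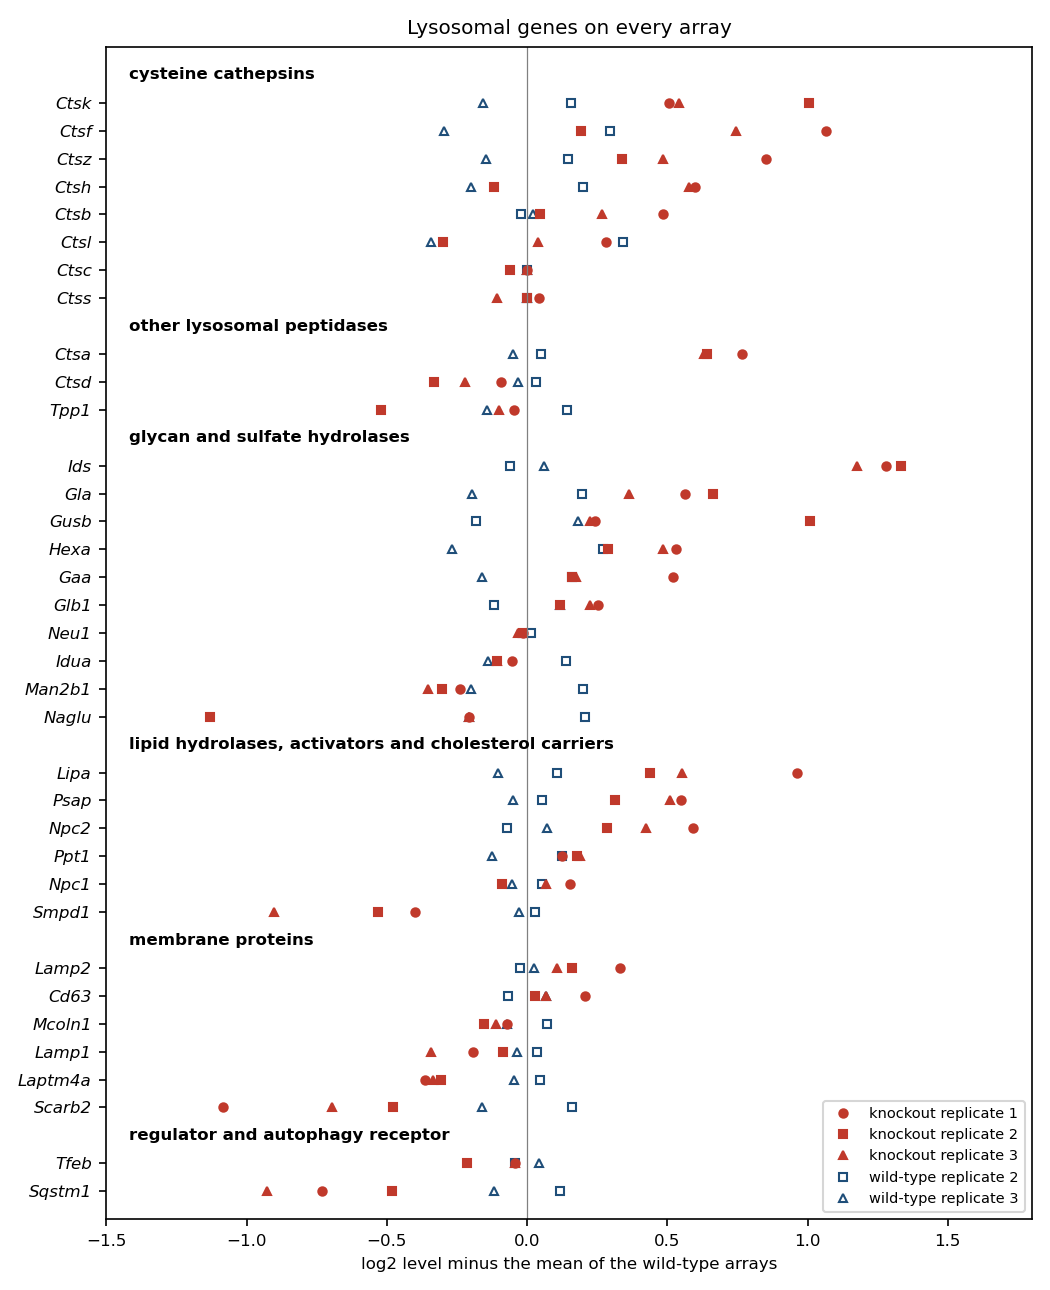
Log2 level of each of the 35 lysosomal genes on every array, minus the mean of the 2 wild-type arrays, grouped by role; filled marks are arrays labelled knockout and open marks wild type. Ids stands furthest to the right with no overlap, and Scarb2, Smpd1 and Sqstm1 lie to the left on all 3 arrays labelled knockout.

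Taken over the 35 genes, 12 lay higher on every array labelled knockout than on both wild-type arrays (34.3%, against 10.6% of all genes) and 7 lay lower on every one (20.0%, against 14.4%). At an unadjusted p under 0.05, 7 were higher (20.0%, against 5.36% of all genes): Ctsk, Ctsa, Gla, Ids, Lipa, Psap and Npc2. Another 4 were lower (11.4%, against 8.29%): Smpd1, Scarb2, Laptm4a and Sqstm1. These counts depend on single arrays: the higher count was 3 without knockout replicate 3 and 3 without wild-type replicate 3, and the lower count was 1 without wild-type replicate 2. Bright genes reach such counts more often, and 27 of the 35 were above the 75th percentile of mean level over all arrays. Among such bright genes, 12 of the 27 lay higher without overlap (44.4%, against 17.8% of 5408 genes) and 7 lower (25.9%, against 30.9%). The shares with an unadjusted p under 0.05 there were 25.9% higher, against 10.9%, and 14.8% lower, against 18.9%. The downward shares were therefore near the background of bright genes, and the upward shares lay above it. Ctsk counts in both upward shares. It passed the cut of 6.26 through the arrays labelled knockout, with a mean of 6.57 there and 5.88 on the wild-type arrays. The median log2 fold change of the 35 genes was 0.10, beside 0 over all genes. Array by array, their median was 0.21, 0 and 0.07 for knockout replicates 1, 2 and 3. It was 0.05 and -0.05 for wild-type replicates 2 and 3, so knockout replicate 2 lay below wild-type replicate 2. The upward shift of the 35 was therefore not shared by all arrays labelled knockout. For the 27 bright ones the median was 0.20, beside -0.06 over all bright genes. Their medians in the same order were 0.25, 0.12 and 0.18 against 0.05 and -0.05, without overlap. Of the 35, 26 were above the antigenomic 95th percentile on all arrays, and Ctsc, Ctsf, Ctss, Idua, Neu1 and Tfeb were above it on none. For those 6, a difference has little signal behind it.

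**Figure D3:**
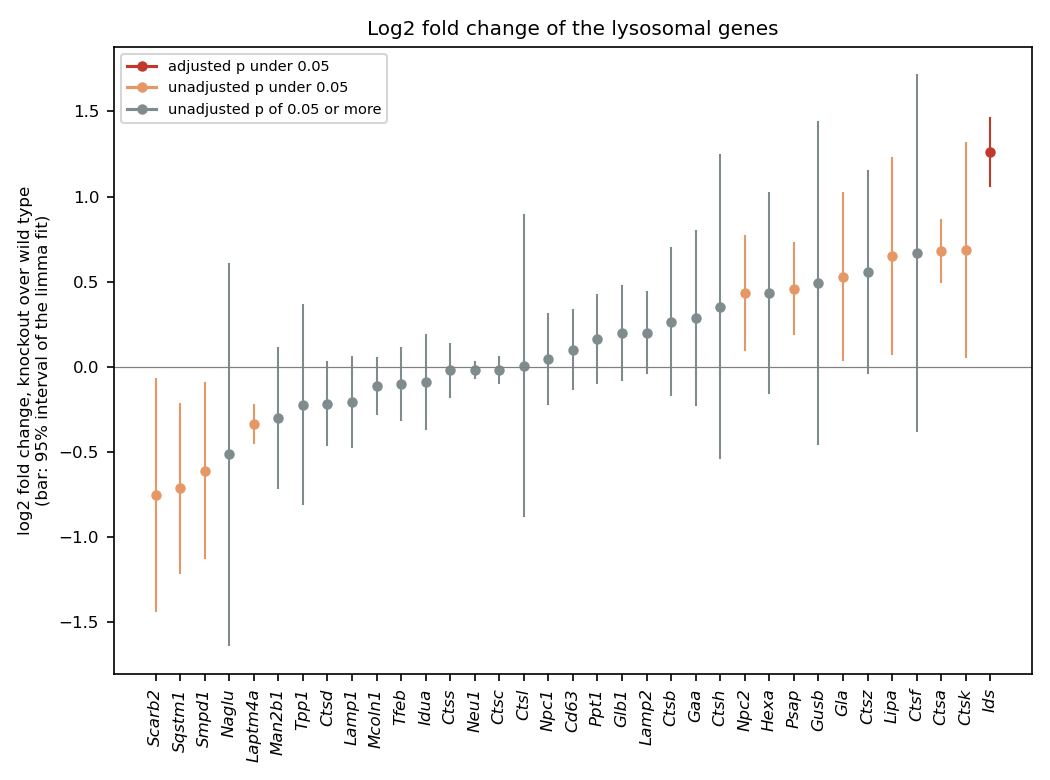
Log2 fold change of each lysosomal gene, arrays labelled knockout over wild type, with the 95% interval of the limma fit, in rising order. Ids, the gene past the adjusted threshold, has an interval of 1.06 to 1.46, while the intervals of 24 of the 35 genes include 0.

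Among the 8 cysteine cathepsins, which are papain-like proteases, 6 lay on the higher side and 3 did so without overlap, with a median log2 fold change of 0.31. The 3 are 37.5% of the group, beside 10.6% of all genes and 17.8% of bright genes, and 48.5% of all genes lay on the higher side. Of the 8, 4 were bright. Over the wild-type mean, the median of the 8 was 0.50, 0.02 and 0.38 on knockout replicates 1 to 3. It was 0.15 and -0.15 on wild-type replicates 2 and 3. None of the 8 passed the adjusted test. Ctsk encodes cathepsin K, a collagen-degrading protease. In the same order of arrays it read 6.39, 6.89 and 6.42, and 6.04 and 5.73 on the wild-type arrays, a difference of 0.68 ± 0.22 (adjusted p = 0.326). On wild-type replicate 3 it was below background, which limits the size of the difference. Ctsz encodes cathepsin Z, a carboxypeptidase. It read 9.37, 8.86 and 9.001 against 8.66 and 8.37, a difference of 0.56 ± 0.20 (adjusted p = 0.396). In both genes the groups did not overlap. Ctsf, for cathepsin F, read 5.61, 4.74 and 5.30 against 4.85 and 4.25, so its groups overlapped below the background percentile. Ctsb, the abundant cathepsin B, lay higher by 0.27 ± 0.15 with groups set apart by only the second decimal place (9.43 on knockout replicate 2 and 9.41 on wild-type replicate 3). Cathepsin L (Ctsl, 0.01 ± 0.31) and cathepsin H (Ctsh, 0.35 ± 0.31) had overlapping groups, and Ctsh was above background on 1 array. Ctsl ranged from 8.94 to 9.52 on the arrays labelled knockout and from 8.90 to 9.58 on the wild-type arrays, a spread that allows a difference from -0.88 to 0.89. Cathepsins C and S (Ctsc and Ctss), which are typical of immune cells, were below background on every array.

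The 3 other peptidases lay on both sides of 0. Ctsa encodes cathepsin A, a serine carboxypeptidase that also protects β-galactosidase and neuraminidase in a complex, and lies on chromosome 2 (164658373 to 164666532, plus strand, NCBIM37). Its log2 signal was 10.10, 9.97 and 9.96 against 9.38 and 9.28. The 3 arrays labelled knockout lay close together and well above both others, with means of 10.01 ± 0.08 (SD, n = 3) and 9.33 ± 0.07 (SD, n = 2). The difference was 0.68 ± 0.06, or 1.60-fold, and missed the threshold (adjusted p = 0.0734). It passed under 4 alternatives, with an adjusted p of 0.0254 after quantile normalization of the deposited values, 0.0479 with array medians subtracted, 0.0391 without dim genes and 0.0381 without genes of equal values. Over all alternatives the adjusted p of Ctsa ran from 0.0254 to 0.356. Ctsd, for the aspartic protease cathepsin D, lay lower without overlap by -0.22 ± 0.08 (adjusted p = 0.430). Tpp1, for tripeptidyl peptidase 1, had overlapping groups (-0.22 ± 0.20).

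Glycan and sulfate hydrolases numbered 10, of which 4 lay higher without overlap (Ids, Gla, Gusb and Hexa) and 1 lower (Man2b1), with a median of 0.24. These are 40.0% and 10.0%, beside 10.6% and 14.4% of all genes and 17.8% and 30.9% of bright genes. Of the 10, 7 were bright. Gla encodes α-galactosidase A, an X-linked enzyme that cleaves terminal galactose from glycolipids. Its log2 signal was 7.20, 7.30 and 7.0 against 6.83 and 6.44, a difference of 0.53 ± 0.17 (adjusted p = 0.328). Its part of sex-linked expression was likewise not tested. Gusb, for β-glucuronidase, read 6.64, 7.41 and 6.62 against 6.22 and 6.58. Only knockout replicate 2 stood clear of the wild-type arrays there, and the difference was 0.49 ± 0.33 (adjusted p = 0.554). Hexa, for the α subunit of β-hexosaminidase, lay higher by 0.44 ± 0.20 and Man2b1, for lysosomal α-mannosidase, lower by -0.30 ± 0.14 (adjusted p = 0.521 and 0.527). Gaa, for acid α-glucosidase, had overlapping groups (0.29 ± 0.18).

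Glb1, the enzyme of the senescence stain, read 7.64, 7.50 and 7.61 on the arrays labelled knockout against 7.26 and 7.50 on the wild-type arrays. Knockout replicate 2 and wild-type replicate 3 had the same value, so the groups touched. The difference was 0.20 ± 0.09 (95% interval -0.07 to 0.47, adjusted p = 0.527), which was not distinguishable from 0 with these arrays. A dimmer probe set of Glb1 read 3.00, 3.30 and 3.30 against 3.30 and 3.30, far below background, and differed by -0.10. Naglu, for the α-N-acetylglucosaminidase of heparan sulfate breakdown, read 5.77, 4.85 and 5.77 against 6.19 and 5.77, a difference of -0.51 ± 0.39. That difference was -0.21 without knockout replicate 2 and -0.31 without wild-type replicate 2. Naglu was above background on wild-type replicate 2 only. Idua, for α-L-iduronidase, which acts on heparan and dermatan sulfate after iduronate 2-sulfatase, was below background on every array, as was Neu1, for neuraminidase.

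The lipid group held 3 genes that lay higher without overlap, 1 that lay lower, and a median of 0.30. All 6 genes of the group were bright, and the shares of 50.0% and 16.7% stand beside 17.8% and 30.9% of bright genes. Lipa encodes lysosomal acid lipase, which releases cholesterol and fatty acids from lipoprotein esters. It read 8.64, 8.12 and 8.23 against 7.78 and 7.57, a difference of 0.65 ± 0.20 (adjusted p = 0.313). Psap encodes prosaposin, the precursor of the saposins that present sphingolipids to their hydrolases. It read 10.44, 10.21 and 10.40 against 9.95 and 9.84, a difference of 0.46 ± 0.09 (adjusted p = 0.195). Npc2, a soluble carrier that hands cholesterol to Npc1, read 10.78, 10.47 and 10.61 against 10.12 and 10.26, a difference of 0.43 ± 0.12 (adjusted p = 0.266). All 3 arrays labelled knockout were above both wild-type arrays in each of these genes, and knockout replicate 1 was the highest in each. Smpd1, for acid sphingomyelinase, lay lower without overlap. It read 7.03, 6.90 and 6.53 against 7.46 and 7.40, a difference of -0.61 ± 0.18 (adjusted p = 0.293). Npc1, the membrane partner of Npc2, was at 0.04 ± 0.09, and Ppt1, for palmitoyl-protein thioesterase 1, at 0.17 ± 0.09, both with overlapping groups.

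Of the membrane proteins, 4 of 6 (66.7%) lay on the lower side, 3 of them (50.0%) without overlap, with a median of -0.16. All 6 were bright, and among bright genes 58.5% lay on the lower side and 30.9% did so without overlap, so the share on the lower side is near the background. Scarb2 encodes LIMP-2, the receptor that carries β-glucocerebrosidase to lysosomes. It read 6.86, 7.46 and 7.24 against 8.10 and 7.78, a difference of -0.75 ± 0.24 (adjusted p = 0.321). Laptm4a, for a small membrane protein of late endosomes and lysosomes, read 10.48, 10.54 and 10.51 against 10.89 and 10.80. The spread within each group was small, and the difference of -0.34 ± 0.04 missed the threshold (adjusted p = 0.104). The main lysosomal glycoproteins lay on opposite sides of 0. Lamp1 read 10.42, 10.53 and 10.27 against 10.65 and 10.58, lower by -0.21 ± 0.09 (adjusted p = 0.50). Lamp2, which is X-linked, read 9.92, 9.75 and 9.69 against 9.56 and 9.61, higher by 0.20 ± 0.08 (adjusted p = 0.454). Neither group of arrays overlapped the other in Lamp1 or Lamp2, and both differences were small. The calcium channel gene Mcoln1 (-0.11 ± 0.06) and the tetraspanin gene Cd63 (0.10 ± 0.08) had overlapping groups.

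Tfeb, the transcription factor of the lysosomal gene network, read 4.45, 4.28 and 4.45 against 4.45 and 4.53. These values lie below the antigenomic percentile on every array, so the difference of -0.10 ± 0.07 (adjusted p = 0.559) says little about the level of Tfeb. Sqstm1 encodes p62, a receptor that tethers ubiquitinated cargo to autophagosomes. Its log2 signal was 8.74, 8.99 and 8.54 against 9.58 and 9.35, with no overlap and a difference of -0.71 ± 0.17 (adjusted p = 0.233). For the 10 genes with CACGTG in the windows printed or described above, the median log2 fold change was 0.10, with 2 higher (Ctsa and Gla) and 2 lower (Ctsd and Lamp1) without overlap. For the 22 genes with a window and no match, the median was 0.04, with 9 higher and 5 lower without overlap. Over all genes 10.6% lay higher and 14.4% lower without overlap, and over bright genes 17.8% and 30.9%. No difference between the genes with and without a match was tested.

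Lists of other lysosomal genes were read beside the 35, and in these lists 0 genes had an adjusted p under 0.05. The proton pump leaned furthest to the lower side. Of its 18 measured genes, 12 (66.7%) lay lower without overlap and 0 higher, beside 14.4% and 10.6% of all genes. At an unadjusted p under 0.05, 10 (55.6%) were lower, beside 8.29% of all genes and 18.9% of bright genes. The median was -0.36. Atp6v1h, for a regulatory subunit of the cytosolic V1 sector, read 6.15, 6.79 and 6.22 against 7.66 and 7.51 (difference -1.20 ± 0.24, adjusted p = 0.195). Subunit genes of the membrane V0 sector, Atp6v0e2 (-1.21 ± 0.29, adjusted p = 0.234) and Atp6v0d1 (-0.96 ± 0.30, adjusted p = 0.323), and of V1, Atp6v1b2 (-0.94 ± 0.32, adjusted p = 0.356), lay lower too. Atp6v0e2 was above the antigenomic percentile on 1 array. Above the 75th percentile of mean level, 11 of 16 pump genes (68.8%) lay lower without overlap, beside the 30.9% of all bright genes.

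Hydrolases and activators outside the 35 numbered 31, of which 10 (32.3%) lay higher and 5 (16.1%) lower without overlap, with a median of 0.07, beside 10.6% and 14.4% of all genes. The lower share is near that of all genes. Among the 17 bright ones, 8 (47.1%) lay higher and 1 (5.88%) lower, beside 17.8% and 30.9% of all bright genes. Of the 8, Gm2a and Naaa passed the cut for bright genes through the arrays labelled knockout. Their wild-type means were 6.01 and 5.96, below the cut of 6.26. Gm2a stood furthest out. It encodes the GM2 activator, which lifts gangliosides to β-hexosaminidase A, the enzyme that contains the Hexa subunit. Its log2 signal was 9.80, 8.83 and 9.66 against 6.31 and 5.71, a difference of 3.42 ± 0.41 that missed the threshold (adjusted p = 0.110). Each array labelled knockout lay more than 2 log2 units above both wild-type arrays. The difference of Hexa was 0.44. Arsa, for arylsulfatase A (1.93 ± 0.28, adjusted p = 0.135), Naaa, for an acid amidase of N-acylethanolamines (1.33 ± 0.22, adjusted p = 0.157), and Prcp, for prolylcarboxypeptidase (1.32 ± 0.20, adjusted p = 0.138), also lay higher without overlap. Arsa and Prcp were below background on both wild-type arrays, and Gm2a on 1 of them, which limits the size of those differences.

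Of 17 genes for sorting hydrolases to lysosomes, 6 (35.3%) lay lower and 1 higher without overlap (median -0.03), beside 14.4% and 10.6% of all genes. Among the 11 bright ones, 36.4% lay lower, near the 30.9% of all bright genes. Sort1, for the sorting receptor sortilin, which carries prosaposin and acid sphingomyelinase among other cargo, read 4.24, 4.24 and 3.58 against 6.01 and 6.32, a difference of -2.15 ± 0.28 (adjusted p = 0.120). Its values were above background on the wild-type arrays and below it on all 3 others, so background limits the size of the difference. The retromer genes Vps35 (-0.71 ± 0.20, adjusted p = 0.275) and Vps29 (-0.52 ± 0.12, adjusted p = 0.225) and the clathrin adaptor gene Ap1g1 (-0.57 ± 0.13, adjusted p = 0.226) lay lower. Among 25 autophagy genes, 11 (44.0%) lay lower and 1 higher without overlap, with a median of -0.18, beside 14.4% and 10.6% of all genes. Among the 14 bright ones, 57.1% lay lower, beside 30.9% of all bright genes. Atg9a, counted there, passed the cut of 6.26 through its wild-type mean of 6.69, with 6.15 on the arrays labelled knockout. Gabarapl2, for a ubiquitin-like protein of the autophagosome membrane, was nearest to the threshold: 6.88, 6.98 and 6.78 against 7.76 and 7.78, a difference of -0.89 ± 0.07 (adjusted p = 0.0588). Vps41 (-0.76 ± 0.11), of the complex that tethers vesicles to lysosomes, Becn1 (-0.71 ± 0.21), of the lipid kinase complex that starts autophagosomes, and the kinase gene Ulk2 (-0.56 ± 0.07) lay lower with adjusted p-values of 0.130, 0.301 and 0.118. Becn1 was above background on 2 arrays, both wild type.

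Nutrient sensing and the TFEB family gave 3 of 19 genes higher and 6 lower without overlap (median -0.09), which is 15.8% and 31.6% beside 10.6% and 14.4% of all genes. Among the 10 bright ones, 3 lay lower, near the 30.9% of all bright genes. Flcn, for folliculin, a regulator of Rag GTPases, lay lower by -0.93 ± 0.19 and Rptor, for the raptor subunit of mTORC1, by -0.58 ± 0.16 (adjusted p = 0.202 and 0.271). Mitf, a relative of Tfeb, lay higher by 0.76 ± 0.28 and Lamtor1, which anchors Ragulator to the lysosome, by 0.68 ± 0.20 (adjusted p = 0.402 and 0.299). Mitf was below background on every array, Rptor was above it on 1 array and Flcn on 2, so these differences have little signal behind them. Other membrane proteins numbered 19, with 1 higher and 3 lower without overlap (median -0.08), or 5.26% and 15.8%, where 10.6% and 14.4% of all genes did so. Ostm1, the partner of a lysosomal chloride transporter, lay lower by -1.45 ± 0.34 and the amino acid transporter genes Slc38a9 and Slc36a1 by -1.19 ± 0.18 and -0.50 ± 0.21, while Laptm4b lay higher by 0.72 ± 0.19 (adjusted p = 0.228, 0.139, 0.470 and 0.257). Background limits the size of these differences for Ostm1, Slc38a9 and Slc36a1, which were above it on 3, 1 and 2 arrays. Of 6 measured cathepsin inhibitors, Cst3, for the secreted inhibitor cystatin C, lay higher by 0.76 ± 0.16 and Serpinb6a lower by -0.29 ± 0.14 without overlap (adjusted p = 0.210 and 0.535). Each is 16.7% of the list, beside 10.6% and 14.4% of all genes, and 3 of the 6 inhibitors were below background on every array.

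**Figure D4:**
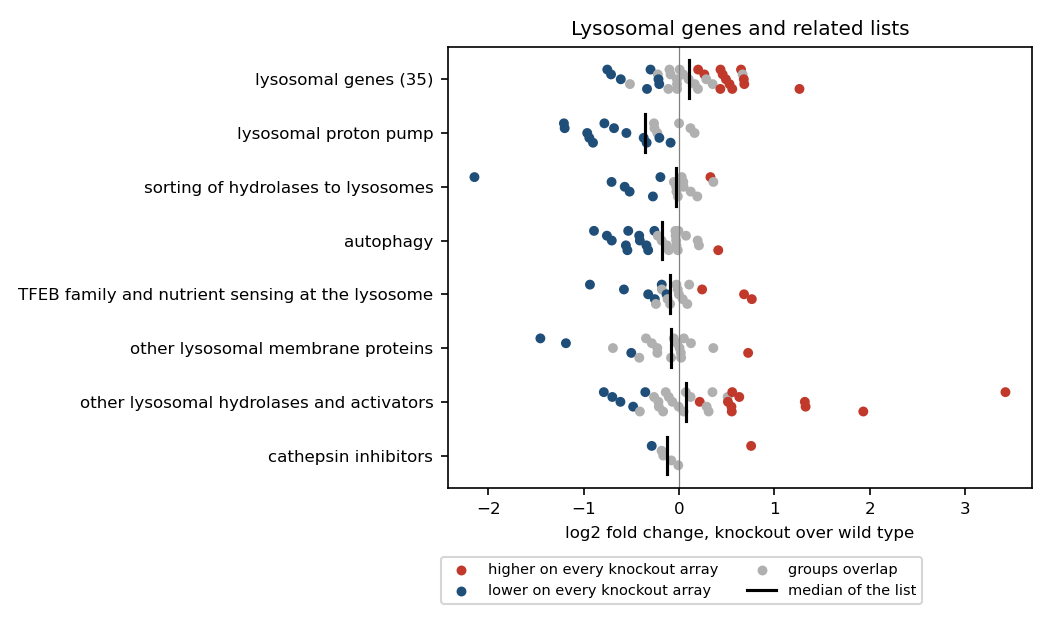
Log2 fold change, arrays labelled knockout over wild type, of the 35 lysosomal genes and of each related list; each point is a gene, coloured by whether every array labelled knockout lay above or below both wild-type arrays, and the black bar is the median of the list. The proton pump has its median at -0.36 with 12 genes lower without overlap, and Gm2a is the point at 3.42.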

How the data were processed

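Per the labels' protocols, biotin-labelled cDNA was made from column-purified total RNA by whole-transcriptome amplification. Per the submitters' processing notes, Affymetrix Expression Console was used; how it summarised and normalized the probes is not stated. The authors deposited log2 values, 1 per probe set and array, which were analysed without further scaling; another deposited copy of the table differed in 0 of 35556 probe sets. Of these probe sets, 28441 were kept after 7115 control probe sets were left out, and 25004 carried 1 gene symbol, 2 several and 3435 none. Symbols were updated through RefSeq names of GRCm38.p6 (22271 by accession, 1412 by current symbol, 557 by older symbol, 764 kept), which found Tfeb under an older symbol. The brightest probe set by mean over all arrays stood for each of 21630 genes. Coordinates of the array annotation are taken as NCBIM37, since of 2953 annotation rows with an explicit NCBIM37 position, 2759 overlap it.

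The comparison used limma 3.58.1 under R 4.3.3 (lmFit, then eBayes, two-sided, no block, Benjamini-Hochberg over all genes, threshold 0.05). Errors beside a difference are moderated standard errors, intervals are 95%, and differences are log2 levels on arrays labelled knockout minus wild type. Levels are not compared between probe sets. Each array's median lay between 4.27 and 4.33, pairwise correlations across genes were 0.968 to 0.993, and the antigenomic 95th percentile was 5.71 to 6.08. Equal values on all arrays occurred for 1589 genes, and only 7670 genes had 5 distinct values. Precision is limited by there being 5 arrays.

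The 35 genes, the lists and the tests were chosen with earlier results of these data known. Values on every array are given for genes past the threshold, those with an unadjusted p under 0.05 and no overlap, the 12 largest differences, and Glb1, Lamp1, Lamp2, Gla, Ids, Tfeb and Sqstm1. From each list, genes past the threshold or up to 4 with the largest difference and no overlap are named; the comparison with genes above the 75th percentile of mean level and Cdh1 and Thy1 were added after values were seen. Serpina3g had no probe set. The fit was run on simulated normal values. These do not reproduce values repeated on only some arrays, so that run cannot check the fit for such genes. Alternatives were other normalizations, filters, probe set rules, prior variances, array weights, a replicate block and leaving out each array.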

Additional observations from a re-analysis of the deposited data

How the results depend on the processing

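Across all genes, 65 passed the threshold; 363 did after quantile normalization of the deposited values, 250 with array medians subtracted, 270 without genes below the 40th percentile, 359 without genes of equal values, 107 with array weights and 0 to 335 when 1 array was left out. Of the 35 lysosomal genes, 1 passed, and 2 (Ids and Ctsa) did under each of the first 4 of these settings. With a trended or a robust prior variance 0 passed (Ids adjusted p = 0.0524 and 0.0606), and leaving out any array gave 0. With the replicate number as a block, 0 genes of all and 0 of the 35 passed (Ids adjusted p = 0.382). The main fit did not take the numbers 2 and 3 to pair the arrays. Same-numbered arrays deviated from their group means with correlations of -0.198 and -0.170 across genes at or above the 40th percentile of mean level. With 2 wild-type arrays, their deviations mirror each other, so these correlations cannot show whether the numbers pair the arrays. The block left 1 residual degree of freedom, against 3 in the main fit, and why the calls were lost was not tested. The count of lysosomal genes at an unadjusted p under 0.05 was 11, and 6 to 11 without 1 array: 6 without knockout replicate 3 and 7 without either wild-type replicate. With 1 wild-type array left, that array is assumed to vary like the others. The median log2 fold change of the 35 was between 0.04 and 0.16, and 0.17 over the 33 tested without genes below the 40th percentile. Among the 19 genes given on every array, 254 of 266 refits kept direction and side of the threshold, 4 brought Ctsa past it and 8 took Ids back over it. Ctsl changed sign in 5 settings, Npc1 in 3, and Ctss, Idua and Neu1 in 1 each; the cause was not tested. Signals near the antigenomic background understate differences, and 3 against 2 arrays leave wide intervals.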
